A study of Mus musculus with 4 samples.

Results

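The genes described here are 8 genes by which mouse mast cells are usually recognised, Cpa3, Mcpt4, Cma1, Tpsb2, Hdc, Fcer1a, Ms4a2 and Kit, out of 18820 genes measured in the inferior vena cava. A probe set was used where the platform annotation gave it a single gene symbol equal to one of these names, and each of the 8 genes had exactly 1 such probe set. Expression was measured with 4 whole-transcript Affymetrix arrays, 1 for each group: Cd39-null mice with the vein ligated for 48 h, Cd39-null mice after sham surgery, wild-type mice with the vein ligated for 48 h, and wild-type mice after sham surgery. The animals, aged 8 to 10 weeks, came from a C57BL/6J backcross of 8 generations or more. The knockout removes CD39, the product of Entpd1, an enzyme of the cell surface that degrades ATP and ADP outside cells, and the labels name no promoter or Cre that would limit the loss to a cell type. Ligation means that the vein was tied below the kidneys, completely or partially, to stop flow and provoke a thrombus; in sham surgery the vein was dissected and not tied. The RNA of 4 mice was pooled for each array, so no group has a replicate, no difference between 2 arrays has an error or a p-value. With 4 arrays in all, their number limits the precision. Which of the pooled mice were male or female, and whether the thrombus was kept with the vein wall, is not given in the sources used here.

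Mast cells are long-lived granulated cells of connective tissue that lie along vessels and nerves, in veins mostly in the outer wall. They depend on the growth factor receptor encoded by Kit and its ligand, are armed by IgE bound to a high-affinity receptor, and release histamine, heparin and a set of granule proteases when triggered. In mice, mast cells have been reported to promote experimental deep vein thrombosis.

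The values are log2 expression values as the authors deposited them, and a difference of 1 is a 2-fold difference. As a stand-in for background, the 95th percentile of 1006 olfactory receptor probe sets was taken on each array. It was 2.68 log2 on the array labelled Cd39-null, ligated, 2.97 on Cd39-null, sham, 2.66 on wild type, ligated, and 2.94 on wild type, sham. Entpd1 itself had log2 values of 6.14 on the array labelled Cd39-null, ligated, and 4.16 on Cd39-null, sham, against 6.17 on wild type, ligated, and 7.11 on wild type, sham. The level of the deleted gene therefore goes against the label of the first of these arrays, which is called by its label throughout. Which stretch of Entpd1 was deleted is not given in the sources used here; if the probe set falls outside it, these values check no label. Comparisons that do not use it are wild type, ligated minus sham, and Cd39-null minus wild type in sham veins.

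The label "mast cell genes" was borne out by the arrays only in part. Above background on all 4 arrays were 3 of the 8 genes, Cpa3, Hdc and Kit. Mcpt4 was above it on 2 arrays, Cd39-null, sham, and wild type, ligated. The other 4 genes, Cma1, Tpsb2, Fcer1a and Ms4a2, were above it on no array. Of the genes that mast cells share with few other cells in the vein, Cpa3 was thus above background throughout. The chymases, the tryptase and the IgE receptor subunits Fcer1a and Ms4a2 were mostly at or under background, while Hdc and Kit are also used by other cell types. Per array, 3 of the 8 genes were above background on the array labelled Cd39-null, ligated, 4 on Cd39-null, sham, 4 on wild type, ligated, and 3 on wild type, sham. The median over all 35556 probe sets was itself above this background on every array, at 2.97, 3.03, 2.99 and 3.04 log2 in the same order. The share of all genes above it was not computed, so these counts are not set against one. A low array value does not show that a transcript was absent, and in pooled tissue RNA fewer mast cells and less RNA per mast cell cannot be told apart.

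**Figure D1:**
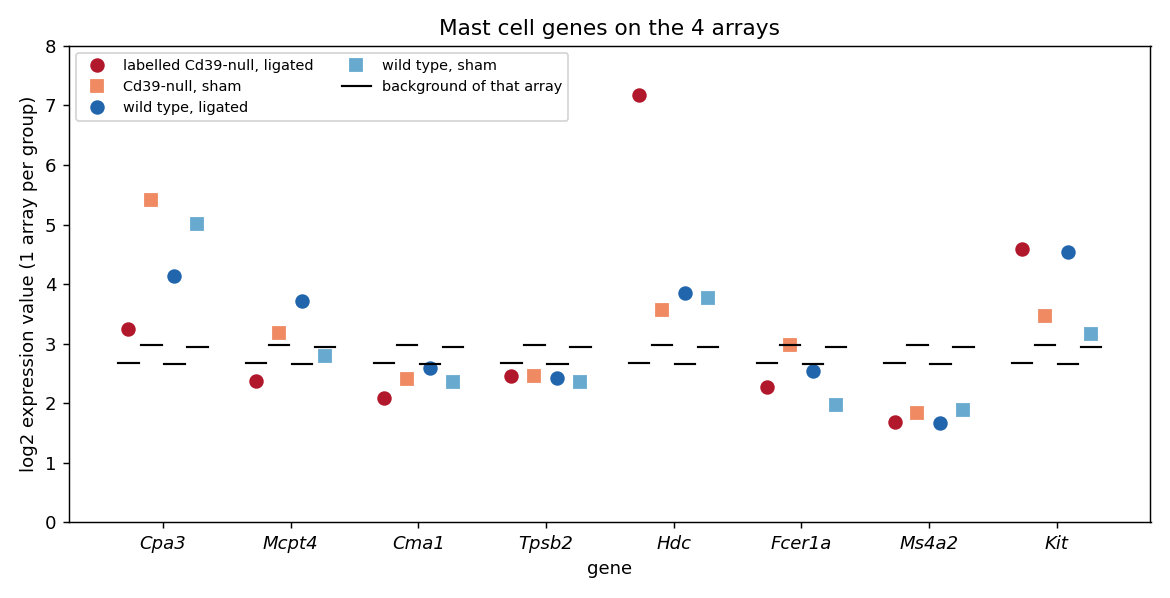
Log2 expression values (vertical axis) of the 8 mast cell genes (horizontal axis) on each of the 4 arrays, with a black tick for the olfactory receptor background of the same array; each point is 1 array of pooled RNA, and levels of different genes are not comparable since each has its own probes. Cpa3 lies between 3.24 and 5.41 and is lower on both ligated arrays, Kit is higher on both ligated arrays, and Hdc stands at 7.17 on the array labelled Cd39-null, ligated, and between 3.56 and 3.85 on the others.

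The promoters of the 3 genes seen on every array are shown because these genes differed in 3 separate ways across the arrays. GATA2 and GATA1, known regulators of mast cell genes, bind letters that hold GATA, and 4 six-letter forms were searched on both strands: AGATAA, then AGATAG, then TGATAA, and lastly TGATAG. The sequences run from 250 bases before to 50 bases after an annotated gene start, 5′ to 3′ along the gene's own strand, from RefSeq with build GRCm38.p6; capitals mark the matches. The Cpa3 window is chr3:20242132-20242431 on the minus strand, the Hdc window chr2:126618629-126618928 on the minus strand, and the Kit window chr5:75574737-75575036 on the plus strand.
Cpa3: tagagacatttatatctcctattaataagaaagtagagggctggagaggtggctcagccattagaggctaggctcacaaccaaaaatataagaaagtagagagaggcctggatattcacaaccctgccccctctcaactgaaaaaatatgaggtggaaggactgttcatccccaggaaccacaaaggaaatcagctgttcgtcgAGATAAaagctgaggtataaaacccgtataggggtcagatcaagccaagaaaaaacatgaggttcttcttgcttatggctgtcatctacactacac
Hdc: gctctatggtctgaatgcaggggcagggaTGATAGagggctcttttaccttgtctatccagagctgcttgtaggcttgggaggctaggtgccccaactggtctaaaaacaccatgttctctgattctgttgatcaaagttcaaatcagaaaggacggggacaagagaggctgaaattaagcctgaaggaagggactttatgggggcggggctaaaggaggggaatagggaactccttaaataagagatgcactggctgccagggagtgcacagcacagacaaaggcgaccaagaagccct
Kit: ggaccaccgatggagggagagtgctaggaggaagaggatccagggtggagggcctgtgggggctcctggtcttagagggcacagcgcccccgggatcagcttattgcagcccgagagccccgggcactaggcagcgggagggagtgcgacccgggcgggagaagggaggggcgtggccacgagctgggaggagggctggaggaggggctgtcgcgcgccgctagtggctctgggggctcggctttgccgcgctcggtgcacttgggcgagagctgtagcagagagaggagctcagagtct

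The Cpa3 window held 1 match, which began at position -46 relative to the gene start, and the Hdc window 1 match, at position -221. The Kit window, with 69.0% G and C against 43.3% in Cpa3 and 50.7% in Hdc, held none. RefSeq windows were at hand for 7 of the 8 genes, all but Tpsb2, and 6 of them held at least 1 match, against 29.8% of all 32851 windows in the table. The matches are a description of letters and say nothing of binding in these veins.

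The first question was how ligation altered these genes. Cpa3 was lower and Kit higher on the ligated array of either genotype, Hdc was high on 1 of the 4 arrays, the one labelled Cd39-null, ligated, and Mcpt4 was above background on 1 array of either pair, the sham one in Cd39-null and the ligated one in wild type. At least 2-fold higher after ligation were 2 of the 8 genes in Cd39-null (Hdc and Kit) and 1 in wild type (Kit), where 10.9% of all 14115 kept genes were in Cd39-null and 6.60% in wild type. At least 2-fold lower were 1 of the 8 in Cd39-null (Cpa3) and 0 in wild type, where 5.80% of all genes were in Cd39-null and 3.63% in wild type. These counts are too small to set apart from the shares over all genes, and the genes had no common direction. Over the 7 genes whose mean value passed the filter on dim genes, all but Ms4a2, the median log2 difference was -0.32 in Cd39-null and 0.23 in wild type, against 0.03 and -0.01 over all kept genes. Of all genes past 2-fold in Cd39-null, 1537 were higher and 818 lower; these were 1116 and 1056 after quantile normalisation of the deposited values and 1174 and 1003 after cyclic loess.

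**Figure D2:**
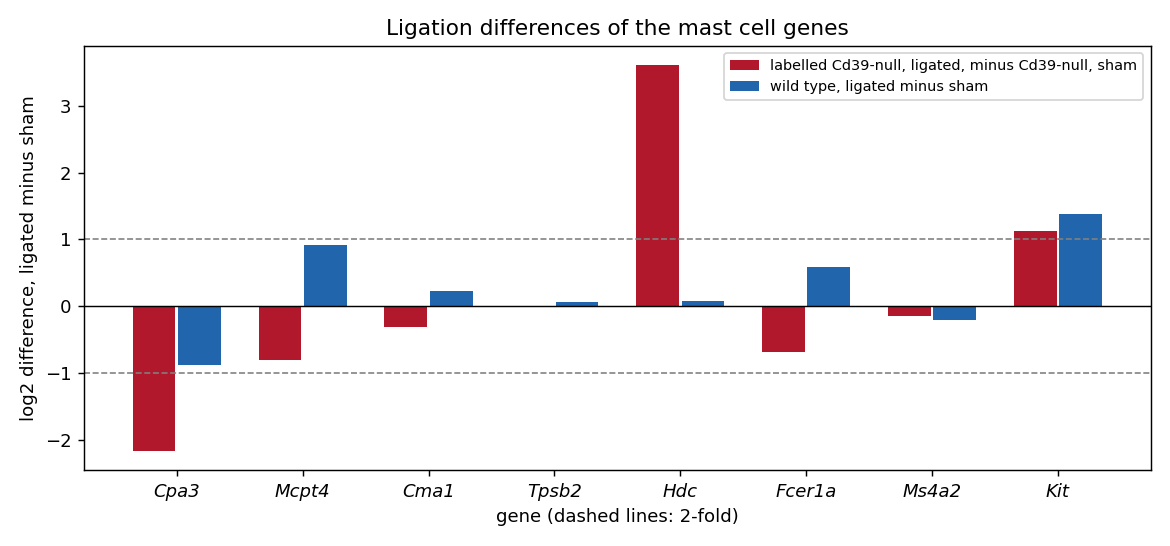
Log2 difference of ligated minus sham (vertical axis) for each of the 8 genes (horizontal axis), with the Cd39-null pair in red left of the wild-type pair in blue and dashed lines at 2-fold. Each bar is a difference of 2 arrays with no error; Cpa3 is negative in both pairs (-2.17 and -0.88), Kit positive in both (1.13 and 1.39), and Hdc is 3.61 in the Cd39-null pair and 0.08 in the wild-type pair. The bars of Mcpt4, Cma1, Tpsb2, Fcer1a and Ms4a2 rest on at least 1 value under background.

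Cpa3 encodes mast cell carboxypeptidase A3, a granule protease that trims peptides after the chymases have cut them. Its log2 value was 3.24 on the array labelled Cd39-null, ligated, against 5.41 on Cd39-null, sham, and 4.13 on wild type, ligated, against 5.01 on wild type, sham. Both ligated arrays were thus below both sham arrays, by a log2 difference of -2.17 in Cd39-null (4.50-fold lower, the 134th lowest of 14115 genes) and of -0.88 in wild type (1.84-fold lower, the 711th lowest). On the array labelled Cd39-null, ligated, it was only 0.56 log2 above background, so the size of that difference may be understated. A model with one term for ligation and one for genotype, fitted with limma to the 4 arrays, gave a mean ligation difference of -1.53 ± 0.37 (SE) for Cpa3, with an adjusted p of 0.139 and an unadjusted p of 0.0107. Without the array labelled Cd39-null, ligated, the ligation difference is the -0.88 of wild type, with no test.

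Markers of nerve and brown fat, tissues found around veins, were among several lists that also had lower means on the ligated arrays. Over all kept genes, 5.8% were at least 2-fold lower in Cd39-null and 3.63% in wild type, and 10.9% and 6.6% were higher. The mean log2 value of 6 nerve markers was 3.33 on the array labelled Cd39-null, ligated, against 5.30 on Cd39-null, sham, and 4.19 on wild type, ligated, against 5.85 on wild type, sham, with 5 of 6 at least 2-fold lower in each genotype. For 5 brown fat markers, such as the uncoupling protein Ucp1, these means were 2.72 against 7.85 and 2.87 against 4.35, with 5 of 5 lower in Cd39-null and 3 of 5 in wild type. General fat markers went both ways: 5 of them, such as Adipoq, had means of 6.17 against 7.64 with 4 of 5 lower in Cd39-null, and of 6.60 against 6.37 with 0 lower and 1 higher in wild type. The means of 8 fibroblast markers were 5.60 against 6.43 and 6.41 against 6.63, with 4 of 8 lower in Cd39-null and 1 of 8 in wild type. The 10 smooth muscle markers had means of 5.26 against 5.80 and 6.75 against 7.36. In Cd39-null 4 of 10 were lower and 1 higher, and in wild type 3 were lower. B cell means were 2.57 against 5.00 and 2.43 against 3.01, and T cell means 3.36 against 4.57 and 2.75 against 3.18. Melanocyte, eosinophil and interstitial cell of Cajal means were lower in both pairs too. The melanocyte and eosinophil means were under the background of each array, so they show no direction. Cpa3 and the nerve, fat, fibroblast and smooth muscle means were each lowest on the array labelled Cd39-null, ligated. B and T cell means were lowest on wild type, ligated. The part of any of these cells or tissues in the Cpa3 difference was not tested.

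Kit encodes the receptor tyrosine kinase for stem cell factor, which mast cells need to survive; blood progenitors, melanocytes and interstitial cells of Cajal carry it too. Its log2 value was 4.58 on the array labelled Cd39-null, ligated, against 3.46 on Cd39-null, sham, and 4.55 on wild type, ligated, against 3.16 on wild type, sham. The ligated arrays were close to each other and above both sham arrays, by log2 differences of 1.13 in Cd39-null (2.18-fold) and 1.39 in wild type (2.61-fold). Kit was 0.49 log2 above background on Cd39-null, sham, and 0.22 on wild type, sham, so the difference may be understated. limma gave a mean ligation difference of 1.26 ± 0.23 (SE), with an adjusted p of 0.107 and an unadjusted p of 0.0034. After quantile normalisation of the deposited values the Cd39-null difference was 0.99, just under 2-fold.

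Kitl, which encodes stem cell factor, was on the other side of zero. Its log2 value was 4.41 on the array labelled Cd39-null, ligated, against 5.25 on Cd39-null, sham, and 4.40 on wild type, ligated, against 5.42 on wild type, sham. The ligation differences were thus -0.84 in Cd39-null and -1.02 in wild type. The mean difference from limma was -0.93 ± 0.23 (SE), with an adjusted p of 0.138. Of the other cells that carry Kit, melanocyte markers had 2 of 5 genes above background on no array, and their mean log2 values were 2.42 against 2.80 in Cd39-null and 2.39 against 2.54 in wild type, ligated against sham. The pair Ano1 and Etv1, found in interstitial cells of Cajal, had means of 2.93 against 3.89 and 4.30 against 4.94. The melanocyte means were under the background of each array, so they show no direction, and the second list holds only 2 genes. Macrophage markers had means of 7.57 against 5.65 and 7.72 against 5.35. At least 2-fold higher were 6 of 8 in Cd39-null and 8 of 8 in wild type, against 10.9% and 6.6% of all kept genes. Endothelial markers had means of 5.98 against 5.94 and 5.89 against 6.99, with 7 of 10 lower in wild type. Of all kept genes 3.63% were lower there. Whether the Kit difference followed any cell type was not tested.

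Hdc encodes histidine decarboxylase, the enzyme that makes histamine; besides mast cells, basophils and neutrophils of mice can express it. Its log2 value was 7.17 on the array labelled Cd39-null, ligated, against 3.56 on Cd39-null, sham, and 3.85 on wild type, ligated, against 3.77 on wild type, sham. A single array was thus high, and the other 3 lay between 3.56 and 3.85. The ligation difference was 3.61 in Cd39-null (12.2-fold, the 39th highest of 14115 genes) and 0.08 in wild type, and the difference of these differences was 3.53, with no test. limma's mean ligation difference was 1.84 ± 0.85 (SE), with an adjusted p of 0.299 and an unadjusted p of 0.0853. Without the array labelled Cd39-null, ligated, there is no Hdc difference past 2-fold.

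The neutrophil and platelet markers were also highest on this array. The mean log2 value of 10 neutrophil markers was 7.07 on the array labelled Cd39-null, ligated, against 5.72 on Cd39-null, sham, and 5.10 on wild type, ligated, against 4.72 on wild type, sham. For 7 platelet markers these means were 8.20 against 4.05 and 4.46 against 5.56. The neutrophil markers did not all follow: after ligation in Cd39-null 4 of 10 were at least 2-fold higher and 1, Camp, lower, and in wild type 2 were higher and 0 lower. Between the ligated arrays, 8 of 10 were at least 2-fold higher on the one labelled Cd39-null and 0 lower. The receptor gene Csf3r had log2 values of 8.61 on the array labelled Cd39-null, ligated, against 4.07 on Cd39-null, sham, while the calprotectin subunit gene S100a8 had 10.05 against 10.22. Of the 4 basophil markers, the proteases Mcpt8 and Prss34 and the receptor Cd200r3 were above background on no array. The fourth, the integrin gene Itga2, which platelets share, was above it on all 4 and highest where Hdc was, with log2 values of 5.98 on the array labelled Cd39-null, ligated, against 3.55 on Cd39-null, sham, and 3.85 on wild type, ligated, against 4.81 on wild type, sham. The part of neutrophils or platelets in the Hdc difference was not tested.

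**Figure D3:**
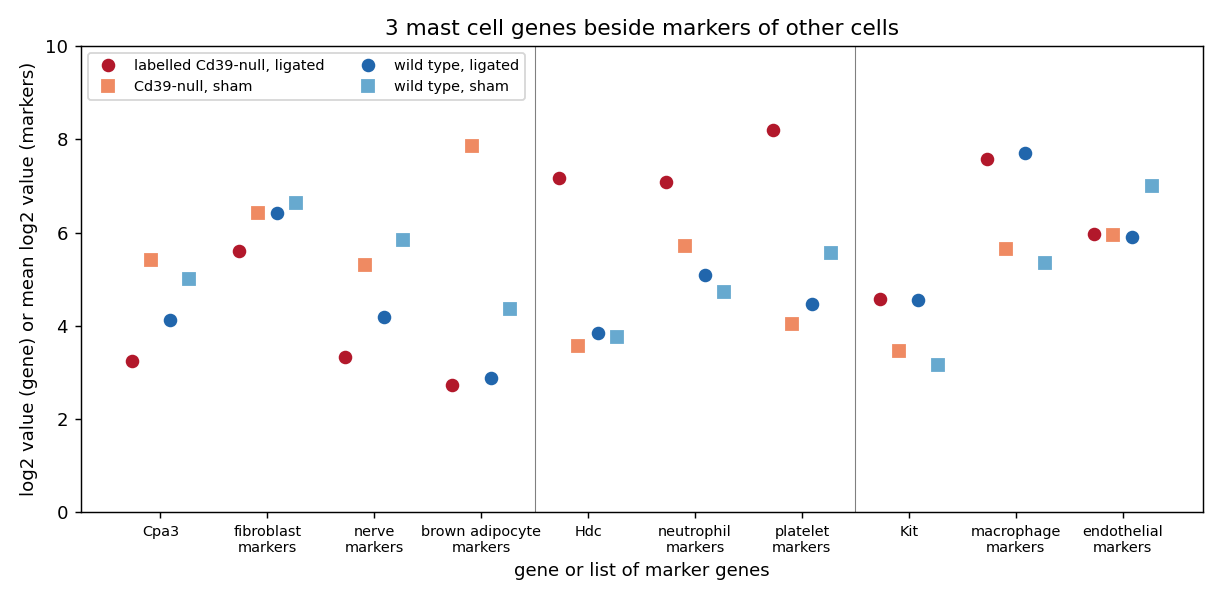
Log2 value of Cpa3, Hdc and Kit, and mean log2 value of marker genes of other cells (vertical axis, labelled per gene or list on the horizontal axis), on each of the 4 arrays; each point is 1 array. Cpa3 stands beside fibroblast, nerve and brown adipocyte markers, Hdc beside neutrophil markers (7.07 on the array labelled Cd39-null, ligated) and platelet markers (8.20), and Kit beside macrophage and endothelial markers.

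Mcpt4 and Cma1 encode chymases, and Tpsb2 a tryptase, the serine proteases that fill the granules of connective tissue mast cells in mice. Mcpt4 had log2 values of 2.37 on the array labelled Cd39-null, ligated, against 3.18 on Cd39-null, sham, and 3.71 on wild type, ligated, against 2.79 on wild type, sham. It was clearly over background only on wild type, ligated, by 1.05 log2. In either genotype 1 of the 2 values was under background, so each ligation difference is given as a bound, the brighter value over the background of the dim array. This bound was 1.41-fold lower after ligation in Cd39-null and 1.71-fold higher in wild type (differences as measured -0.81 and 0.92). In Cd39-null the brighter value was only 0.20 log2 over the background of its own array, 2.97, against a background of 2.68 on the ligated array. A minimum decrease of Mcpt4 is therefore not established in Cd39-null. The mean ligation difference from limma was 0.05 ± 0.46 (SE) with an adjusted p of 0.957. Wild type, ligated, was thus the only array on which a chymase stood out, and on it Cpa3 was lower than on either sham array.

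Cma1 ranged from 2.09 to 2.58 log2 over the 4 arrays and Tpsb2 from 2.36 to 2.46, all under background. Cma1 was closest to it, 0.08 log2 under, on wild type, ligated. Closely related proteases were also under background on every array: Mcpt1, Mcpt2, Tpsab1 and Ctsg ranged from 1.43 to 2.06 log2, and the 2 probe sets that the annotation shares among Cma2, Mcpt9 and Mcpt4 from 1.49 to 1.83. These genes are similar in sequence, so probes of one may take up transcripts of another. The 2 shared probe sets, which also name Mcpt4, did not show its wild-type difference. They read 1.64 on wild type, ligated, against 1.64 on wild type, sham, and 1.55 against 1.59, all under background. The Mcpt4 difference thus rests on 1 probe set.

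Fcer1a and Ms4a2 encode the alpha and beta chains of the high-affinity IgE receptor. Fcer1a had log2 values of 2.28 on the array labelled Cd39-null, ligated, against 2.97 on Cd39-null, sham, and 2.55 on wild type, ligated, against 1.96 on wild type, sham. On Cd39-null, sham, it lay at the background, and elsewhere under it. Ms4a2 ranged from 1.67 to 1.88 log2, at least 0.99 under background on every array. The third chain, the gamma chain Fcer1g, serves other receptors of macrophages, neutrophils and platelets as well. It had log2 values of 9.29 on the array labelled Cd39-null, ligated, against 7.54 on Cd39-null, sham, and 9.16 on wild type, ligated, against 6.96 on wild type, sham, well above background on every array, unlike the alpha and beta chains.

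The second question was how the loss of CD39 altered these genes. In sham veins 3 of the 8 genes, Cpa3, Kit and Hdc, were above background in both genotypes, and each was less than 2-fold apart. Mcpt4 was under background on wild type, sham, and Cma1, Tpsb2, Fcer1a and Ms4a2 were not above it on either sham array. Whether those genes were close between genotypes is therefore not measured. Cpa3 had log2 values of 5.41 in Cd39-null and 5.01 in wild type, Kit 3.46 and 3.16, and Hdc 3.56 and 3.77. Only Fcer1a was at least 2-fold apart, with a log2 difference of 1.01 between values that were not above background, where 2.95% of all kept genes were at least 2-fold higher and 3.54% lower. After quantile normalisation this difference was 0.9992 and after cyclic loess 0.98, so under either 0 of the 8 genes passed 2-fold. Of all genes past 2-fold in sham veins, 416 were higher and 499 lower in Cd39-null; after cyclic loess these were 496 and 353.

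In ligated veins, where the array labelled Cd39-null, ligated, stands for the knockout, Hdc was higher and Mcpt4 lower by at least 2-fold. Hdc was 10.0-fold higher (log2 difference 3.33, the 26th highest of 14115 genes) and Mcpt4, under background on the array labelled Cd39-null, ligated, at least 2.05-fold lower (difference as measured -1.35), where 3.61% of all kept genes were at least 2-fold higher and 2.66% lower. Cpa3 had log2 values of 3.24 against 4.13 (difference -0.89), and Kit of 4.58 against 4.55 (0.04). The ligated arrays were therefore alike in Kit and further apart in Hdc, Mcpt4 and Cpa3. All of these values rest on an array whose Entpd1 level is that of wild type, ligated.

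In the limma fit, the adjusted p was under 0.05 for 0 of the 7 kept genes and for 0 (0%) of all 14115, both for ligation and for genotype. For ligation 2 of the 7 (Cpa3 and Kit) had an unadjusted p under 0.05, against 2960 of all genes (21.0%), and for genotype 0 of the 7, against 979 (6.94%). With 1 residual degree of freedom, the fit treats a ligation response that differs by genotype as error.

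Other genes of mast cell biology were grouped into 9 lists of 84 genes, the 8 described so far included, by their known roles. Counts past 2-fold after ligation in these lists stand beside shares over all 14115 kept genes. Those shares were 10.9% higher and 5.8% lower in Cd39-null, and 6.6% higher and 3.63% lower in wild type. Of the genes of granule storage and release, all 9 were measured, and 3 were at least 2-fold higher after ligation in Cd39-null and 2 in wild type, with 0 and 1 lower. The higher ones included Vamp8 (log2 difference 2.23 in Cd39-null and 1.75 in wild type) and Snap23 (2.40 and 1.06), membrane fusion proteins also used by platelets and other leukocytes. Slc18a2, the transporter that loads histamine and other amines into granules, was the lower one, with log2 values of 4.41 on the array labelled Cd39-null, ligated, against 4.66 on Cd39-null, sham, and 3.98 on wild type, ligated, against 5.24 on wild type, sham. It is also used by sympathetic nerves and platelets. Srgn, the core protein that holds heparin and proteases in granules, differed by 0.73 and -0.32.

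Of Fcer1g and the 10 signalling genes below the IgE receptor, 7 of 11 were at least 2-fold higher after ligation in Cd39-null and 5 of 11 in wild type, and 0 were lower in either. Of all kept genes, 10.9% were higher in Cd39-null and 6.6% in wild type. Examples with both values were the adaptor Lcp2 (1.92 in Cd39-null and 1.72 in wild type), the inhibitory phosphatase Inpp5d (2.51 and 1.21) and the kinase Btk (1.09 and 1.76). Fyn, Plcg1 and Plcg2 were within 0.39 log2 in both. These genes serve many leukocytes. Of the surface receptors other than Kit, the complement receptor C3ar1 was higher (2.36 and 2.06). Mrgprb2, the receptor by which mouse mast cells answer basic peptides, ranged from 1.78 to 2.11 log2 and was above background on no array.

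Of the growth factors, Il33, an alarmin of damaged tissue that activates mast cells, had log2 differences of 1.77 in Cd39-null and 0.55 in wild type, and Il3, Il9, Tslp, Csf2 and Il4 were above background on no array. Of 8 transcription factors, Runx1 (2.09 and 1.52) and Spi1 (2.14 and 2.47), shared by myeloid cells, were higher. Gata2, a factor of mast cells, progenitors and endothelium, had log2 values of 3.93 on the array labelled Cd39-null, ligated, against 3.74 on Cd39-null, sham, and 3.97 on wild type, ligated, against 4.97 on wild type, sham, and Mitf stayed within 0.19 log2 over the 4 arrays. Gata2 was thus highest on wild type, sham, and the other 3 arrays were close together.

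Of the 4 kept genes around histamine other than Hdc, 0 were at least 2-fold higher after ligation in either genotype, and Slc18a2, given above, was lower in wild type. The degrading enzyme Hnmt had log2 values of 3.39 on the array labelled Cd39-null, ligated, against 3.64 on Cd39-null, sham, and 3.35 on wild type, ligated, against 3.58 on wild type, sham. The receptor genes Hrh1 and Hrh2 differed by 0.39 and 0.38 in Cd39-null and by 0.36 and -0.16 in wild type, and Hrh3 and Hrh4 were above background on no array. Hrh1 was under background on Cd39-null, sham, at 2.81 log2, so its Cd39-null difference is not measured on both sides.

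Of the 7 lipid mediator genes, 4 were at least 2-fold higher after ligation in each genotype. Of all kept genes, 10.9% were higher in Cd39-null and 6.6% in wild type. The lipid mediator genes were Alox5, Alox5ap, Ptgs2 and Pla2g4a in Cd39-null, and Alox5, Alox5ap, Hpgds and Ltc4s in wild type. Alox5 (2.08 in Cd39-null and 1.31 in wild type) and its partner Alox5ap (2.82 and 1.78), which begin leukotriene synthesis in myeloid cells, were thus in both sets. Hpgds, the prostaglandin D2 synthase of mast cells and some macrophages, had log2 values of 3.70 on the array labelled Cd39-null, ligated, against 4.55 on Cd39-null, sham, and 6.14 on wild type, ligated, against 3.26 on wild type, sham. It was highest on wild type, ligated, as was Mcpt4, and its ligation differences of -0.85 in Cd39-null and 2.88 in wild type had opposite signs. Of 10 cytokine genes that mast cells can make, 4 were at least 2-fold higher after ligation in Cd39-null and 1, Il6, in wild type. The 4 were Il6 (4.40 in Cd39-null and 1.69 in wild type), Tnf (1.61 and 0.84), Lif (1.62 and 0.91) and Osm (1.51 and 0.07). Of these, Il6 and Lif were under background on wild type, sham, and Tnf on both sham arrays (as was Btk on wild type, sham), so those differences are not measured on both sides. Above background on no array were 4 of the cytokine genes, Il4, Il5, Csf2 and Ccl1, and Il13 differed by -0.23 in Cd39-null and -0.40 in wild type. Both wild-type values of Il13 were under background, at 2.38 log2 on the ligated array and 2.78 on the sham array. Adjusted p-values from limma for the list genes named here lay above 0.05.

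**Figure D4:**
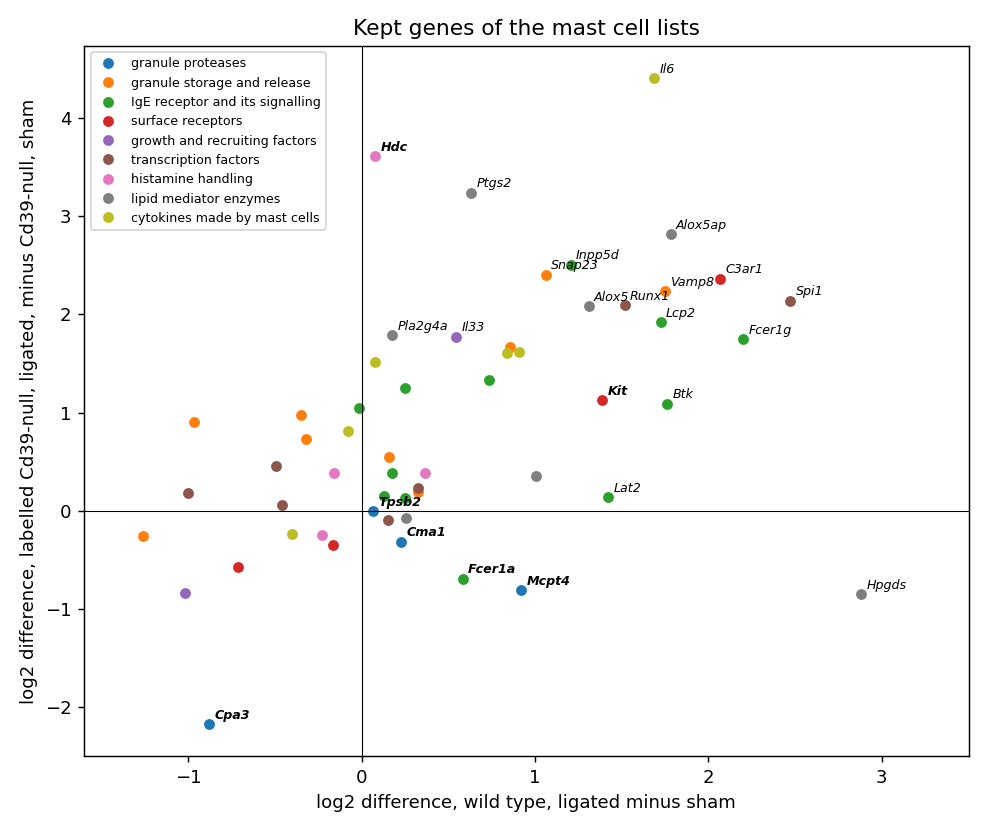
Log2 difference of ligated minus sham in Cd39-null (vertical axis, using the array labelled Cd39-null, ligated) against that in wild type (horizontal axis) for the genes of the 9 mast cell lists that passed the filter on dim genes, coloured by list, with the 7 kept members in bold; each point is 1 gene and the 2 axes share no array. Cpa3 alone of the members lies lower left, Kit lies upper right among the signalling genes, and Mcpt4 and Fcer1a lie lower right with Hpgds.

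Genes with the most similar pattern were ranked by the Euclidean distance, over the 4 arrays, between each gene's mean-centred log2 values and the average of those of Cpa3, Mcpt4, Hdc and Kit. That average was 0.34 on the array labelled Cd39-null, ligated, -0.09 on Cd39-null, sham, 0.06 on wild type, ligated, and -0.31 on wild type, sham. The 8 nearest of 13264 genes were Akirin1, Birc6, Snrnp25, Mrps23, Ptpn23, Pabpn1, Dap3 and Dhx9, at distances of 0.0263 to 0.0657 log2. The average joins genes of opposite direction and is flatter than any of the 4, so this likeness describes the average and none of the genes in it.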

How the data were processed

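Total RNA of the vena cava, pooled from 4 mice per group, was amplified and hybridised to 1 array per group. The deposited log2 values per probe set come from the authors' use of oligo and RMA, as the submitters' processing notes name them without a version. RMA subtracts background and is meant to equalise the arrays' distributions, so a global change in RNA would not be seen. The deposited values were not fully equal: medians were 2.97 and 2.99 log2 on the ligated arrays and 3.03 and 3.04 on the sham arrays. The olfactory receptor background was also lower on the ligated arrays, at 2.68 and 2.66 against 2.97 and 2.94. Differences of dim genes between ligated and sham arrays may include this offset. The values were used as deposited.

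Probe sets with 1 symbol numbered 21218 of 35556. The brightest per gene was kept, and 14115 of 18820 genes had a mean at or above the 25th percentile (2.29). Entrez identifiers matched a RefSeq table (GRCm38.p6) for 21185 probe sets, with 0 symbols to update; its coordinates were not used for genes. Differences between arrays have no test; calls are differences of at least 2-fold. The additive model was fitted with limma 3.58.1 in R 4.3.3 over all kept genes with Benjamini-Hochberg adjustment (prior degrees of freedom 3.67). Tested on simulated data with known answers, the fit recovered the differences put in, but its adjusted p let through a larger share of unchanged genes than the threshold allows; no gene here passed it.

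The 8 members, the 9 mast cell lists and the 17 lists of other cells were chosen with earlier results of these data known. All members and any list gene could be named, besides Entpd1 and the 8 genes of most similar pattern; predicted genes and gene segments were left out of that ranking. List genes with no probe set of their own symbol were not analysed here. Alternatives were quantile normalisation, cyclic loess, no filter, a filter at the median, the mean of all probe sets per gene and an intensity trend.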

Additional observations from a re-analysis of the deposited data

Results flagged for a closer look

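In 4 cases a gene above background on at least 1 array differed in opposite directions in the 2 pairs of arrays of one contrast; with 1 array per group this difference was not tested in any of them. Mcpt4 was lower after ligation in Cd39-null (log2 difference -0.81) and higher in wild type (0.92). Against wild type, Mcpt4 in Cd39-null was lower in ligated veins (-1.35) and higher in sham veins (0.38). Every one of these 4 Mcpt4 differences uses an array on which it was under background, so their sizes are not measured on both sides. Cpa3 in Cd39-null was lower than in wild type in ligated veins (-0.89) and higher in sham veins (0.40). Hdc in Cd39-null was higher than in wild type in ligated veins (3.33) and lower in sham veins (-0.21). Each case uses the array labelled Cd39-null, ligated, and the sham differences are all under 2-fold.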

How the results depend on the processing

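No paired analysis was possible because each group has 1 array and the labels carry no replicate numbers. Of 120 alternative values of the 40 differences of single mast cell genes, 117 kept their side of 2-fold and 3 fell under it (2 of Fcer1a in sham veins, and 1 of Kit in Cd39-null after quantile normalisation). For each of the 40 differences, 1 alternative, the mean of all probe sets, could not move. Each gene has 1 probe set, so that value equals the reported one by construction. Only quantile normalisation and cyclic loess could change these differences. The sign turned in 7 values of 5 differences, each at most 0.15 log2 as reported, Hdc in wild type among them, and in 0 differences of at least 2-fold. The number of the 8 genes at least 2-fold apart between genotypes in sham veins was 1 as reported and 0 after quantile normalisation or cyclic loess, a loss of Fcer1a. With the background at the 99th percentile, chosen after the data were seen, 1 of the 8 genes (Cpa3) was above it on all arrays in place of 3. Leaving out the array labelled Cd39-null, ligated, also chosen afterwards, moved the mean ligation difference to -0.88 for Cpa3 and to 0.08 for Hdc, both under 2-fold. limma's adjusted p for ligation ranged from 0.112 to 0.170 for Cpa3, 0.0892 to 0.132 for Kit and 0.247 to 0.346 for Hdc, with 0 genes past 0.05 in every setting (at an unadjusted p under 0.05, 2300 to 3548 genes for ligation and 717 to 1216 for genotype). Dim genes limit what can be seen: 4 of the 8 genes were above background on no array.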

Other observations

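The genes nearest in pattern to each single gene were listed after the values had been seen, with the 6 nearest of 13264 genes by the same distance over the 4 arrays. For Cpa3 they were Scn7a, Cmtm5, Gjc3, Acyp2, Armh4 and Npy, at distances of 0.192 to 0.274 log2. Scn7a and Gjc3 are known from glia and nerve, and Npy is a transmitter of sympathetic neurons. Scn7a had log2 values of 5.07 on the array labelled Cd39-null, ligated, against 7.44 on Cd39-null, sham, and 6.15 on wild type, ligated, against 7.09 on wild type, sham.

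For Hdc the nearest genes were Cxcl3, Il1r2, Rdh12, Hcar2, Klra2 and Nos2, at 0.172 to 0.306 log2. Cxcl3, a chemokine that draws neutrophils, had log2 values of 6.88 on the array labelled Cd39-null, ligated, against 3.75 on wild type, ligated, and 3.62 on wild type, sham. Il1r2, the decoy receptor for interleukin-1, had 7.52 against 3.59 and 3.95 against 3.99. For Kit they were Rnpep, Hgsnat, Arhgef1, Rab7b, Irf5 and Ssr3, at 0.0997 to 0.124 log2, and for Mcpt4 Slamf9, Myorg, Mgst3, Vkorc1, Rsl1 and Hfe, at 0.102 to 0.280 log2. With 4 arrays many genes share a pattern.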
